A study of Mus musculus with 12 samples.

Results

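Myelin genes of Schwann cells are described here through 8 genes chosen by symbol: Pmp22, Mbp, Prx, Mag, Mal, Cnp, Egr2 and Ncmap. All 8 were found among the 55348 genes counted in every library, and all 8 passed the filter on low counts that left 19052 genes for testing. The libraries were bulk, stranded RNA-seq of the hearing epithelium of the cochlea, the organ of Corti, from mice at postnatal day 21 with the stria vascularis and the modiolus dissected away. There were 3 libraries for each of 4 genotypes, all constitutive. They were wild-type, Clrn1-/- (an exon of Clrn1 deleted with PGK-cre, a Cre active from the embryo on), Clrn2-/- (homozygous for the clarinet allele, a nonsense mutation) and Clrn1-/-Clrn2-/- (from crosses of both mutants). Clarin-1 and clarin-2 are related membrane proteins of hair cells that are needed for hearing, so the comparisons address what the loss of either, or of both, changes in this tissue. Every mouse received the same lethal ketamine and xylazine injection, and the labels give no strain and do not say how many animals went into a library. The wild-type mice came from breedings of their own, not from litters of the mutants, so breeding and genotype cannot be told apart. According to the methods, organs of Corti were taken in triplicate and experiments in general drew on 2 or more litters. The labels tie no library to an animal or litter, so the p-values measure the spread between these libraries, which may be technical.

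Myelin is the multilayered membrane sheath that lets axons conduct quickly. In peripheral nerve each Schwann cell wraps a single stretch of axon, while in the central nervous system oligodendrocytes wrap many. In the cochlea, Schwann cells myelinate the peripheral fibres of the spiral ganglion neurons as far as the openings through which those fibres enter the organ of Corti, and oligodendrocytes myelinate the central part of the auditory nerve. The transcription factors Sox10 and Egr2 together switch on the myelin genes of the Schwann cell. Of the 8 genes, Pmp22 (a tetraspan protein of compact myelin), Prx (periaxin, a scaffold that ties the Schwann cell membrane to its cytoskeleton), Ncmap (a membrane protein of non-compact peripheral myelin) and Egr2 belong to peripheral myelin, whereas Mbp (which seals the cytoplasmic faces of compact myelin), Mag (the adhesion molecule of the innermost, axon-facing membrane), Mal (a raft proteolipid of membrane trafficking) and Cnp (an enzyme of the cytoplasmic channels in myelin) are used by oligodendrocytes as well.

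The sequence before the start of Pmp22, Prx and Mag is shown because these genes moved in opposite directions from library to library, as described further on. Each line gives the 250 bases before the most upstream listed start, 5′ to 3′ on the strand of the gene, from RefSeq on GRCm38.p6, at chr11:63128732-63128981 (Pmp22, plus strand), chr7:27499074-27499323 (Prx, plus strand) and chr7:30914923-30915172 (Mag, minus strand).
Pmp22: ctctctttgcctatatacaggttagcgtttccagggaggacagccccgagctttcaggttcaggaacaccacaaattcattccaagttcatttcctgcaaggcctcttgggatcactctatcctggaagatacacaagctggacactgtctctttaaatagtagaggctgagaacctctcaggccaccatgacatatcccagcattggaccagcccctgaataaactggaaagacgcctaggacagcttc
Prx: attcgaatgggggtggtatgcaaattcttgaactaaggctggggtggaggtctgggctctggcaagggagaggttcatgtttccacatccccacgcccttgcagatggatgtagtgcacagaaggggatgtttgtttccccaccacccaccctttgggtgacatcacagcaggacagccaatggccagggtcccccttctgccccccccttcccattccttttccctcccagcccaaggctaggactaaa
Mag: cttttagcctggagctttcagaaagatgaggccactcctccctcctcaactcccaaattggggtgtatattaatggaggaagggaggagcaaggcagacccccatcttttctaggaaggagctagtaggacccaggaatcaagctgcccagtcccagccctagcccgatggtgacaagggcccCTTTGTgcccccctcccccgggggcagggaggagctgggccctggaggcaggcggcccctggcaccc
Capitals mark the single match to the Sox10 core ACAAAG, which lies on the other strand of the Mag window, 67 bases before the start. Windows were found for 7 of the 8 genes. On either strand, ACAAAG was also present in the Cnp window, 167 bases before its start, whereas ACAATG, another Sox10 core, and GCGNGGGCG, the Egr2 motif, matched in none of the 7. Of 32851 promoter windows of this length, 16.5% held ACAAAG, 10.7% ACAATG, 25.2% either of these, and 4.70% GCGNGGGCG. A match of such short letters is a description, not a binding site.

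Between 30008679 and 41049302 reads were counted on genes per library, and the 8 genes held 1.07 to 1.22% of them. The deleted gene fitted its labels: Clrn1 stood at 25.8 ± 2.47 CPM (counts scaled to library size, all ± values of levels are SD over n = 3 libraries) in wild-type and 28.8 ± 2.83 in Clrn2-/-, against 2.83 ± 0.18 in Clrn1-/- and 2.30 ± 0.48 in Clrn1-/-Clrn2-/-. Clrn2 stood at 2.72 ± 0.73 CPM in wild-type, against 1.23 ± 0.17 in Clrn2-/-, 1.08 ± 0.14 in Clrn1-/-Clrn2-/- and 0.916 ± 0.107 in Clrn1-/-, and so, although a nonsense mutation need not remove the RNA, it was low in all 3 mutants and does not tell Clrn1-/- from Clrn1-/-Clrn2-/-. Pmp2, a fatty acid carrier of some peripheral myelin, was almost absent at 0 to 0.0983 CPM.

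Transcripts typical of oligodendrocytes were present too. The list used for them shares Olig1 with the list of non-myelinating, immature and repair Schwann cell genes described further on. The 14 oligodendrocyte markers examined (a list that holds none of the 8 genes) were all detected, and their summed level ranged from 1158 to 1791 CPM in wild-type, 849 to 1226 in Clrn1-/-, 1152 to 1519 in Clrn2-/- and 1000 to 1289 in Clrn1-/-Clrn2-/-. Among them, Mobp, a cytoplasmic protein of central myelin, averaged 763 ± 184 CPM in wild-type, although some of its reads may be lost to an overlapping gene on the same strand, and Mog, a protein of the outermost central myelin, averaged 102 ± 19.5. Opalin, another central myelin protein, was close to 0, between 0.902 and 2.42 CPM. How much of the Mbp, Mag, Mal and Cnp RNA came from Schwann cells and how much from oligodendrocytes cannot be told apart in these libraries.

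Per length of merged exons, Pmp22 had the highest level of the 8 genes. With counts divided by the length of the merged exons, wild-type levels in fragments per kilobase of exon, scaled to library size (FPKM) were 965 ± 70.6 for Pmp22, 689 ± 85.0 for Mbp, 316 ± 9.94 for Cnp, 266 ± 6.90 for Mal, 178 ± 14.1 for Prx, 97.6 ± 9.39 for Ncmap, 71.0 ± 9.42 for Mag and 23.98 ± 3.38 for Egr2. The wild-type libraries of neighbours in this order did not overlap. The order depends on the length used: the merged exons of Mbp span 8469 bases over 16 listed transcripts and those of Pmp22 2354 bases over 5, and before division by length Mbp held 5837 ± 720 CPM and Pmp22 2272 ± 166. Which transcripts were made was not measured. On the same per-length scale Sox10 reached 78.4 ± 1.85 FPKM, so Sox10 RNA was more abundant than Egr2 RNA in this tissue.

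Loss of clarin-1 alone went with higher RNA of the peripheral myelin genes Pmp22, Prx and Ncmap and of Mal, and with lower Mag. Called genes are those with an adjusted p at or below 0.05 in edgeR's quasi-likelihood test, with Benjamini-Hochberg adjustment over the 19052 genes. In Clrn1-/- against wild-type 4 of the 8 were called higher and 1 lower, beside 13.6% of all tested genes called higher and 13.3% lower. The 8 log2 fold changes had a median of 0.21, beside −0.0031 over all genes tested. With the level of the oligodendrocyte markers as a further edgeR term, a fit described further on, Prx was not called (0.12, adjusted p = 0.108). Mag was still called in that fit, at −0.16 (adjusted p = 0.0397). No member changed by as much as 1.5-fold in this or any other comparison, while 7.22% of all genes were called and past 1.5-fold in Clrn1-/-, 9.90% in Clrn1-/-Clrn2-/- and 2.66% in Clrn2-/-.

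Loss of both clarins went with higher Ncmap, Mal and Pmp22 and lower Mag and Mbp. In Clrn1-/-Clrn2-/- against wild-type 3 of the 8 were called higher, beside 19.1% of all genes, and 2 lower, beside 17.9%, with a median log2 fold change of 0.065. With the level of the oligodendrocyte markers as a further term, a fit described further on, Pmp22, Mbp and Mag were not called. Loss of clarin-2 alone went with higher Mal. There 1 of the 8 was called higher, beside 7.14% of all genes, and none lower, beside 7.07%, with a median of 0.071. By count of called members lower in Clrn2-/-, DESeq2 and limma-voom also found 0, and 1 member, Mag, had an unadjusted p under 0.05. The 3 comparisons share the wild-type libraries, so each is given with its own values and no count of agreement is drawn from them.

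**Figure D1:**
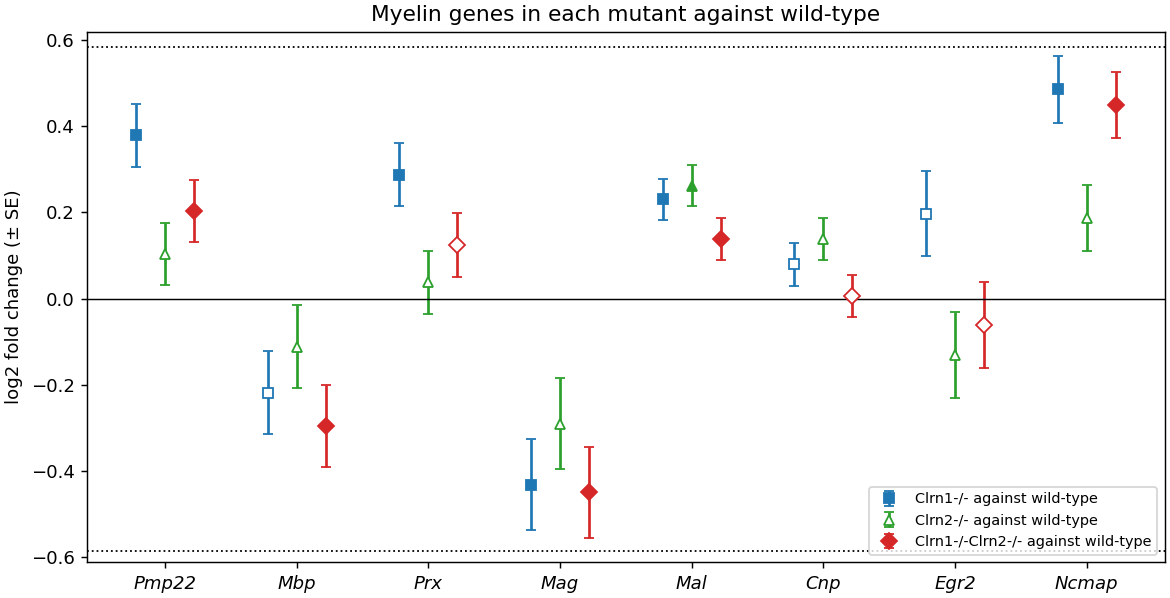
Log2 fold change of the 8 genes (x axis) in each mutant against wild-type (y axis, log2 scale, bars are standard errors, colours and shapes are genotypes), from edgeR over 12 libraries; filled points were called, open points were not, and dotted lines mark a 1.5-fold change. Mal is above 0 and called in all 3 mutants, Mag is below 0 in all 3 and called in Clrn1-/- and Clrn1-/-Clrn2-/-, and no point reaches a dotted line.

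Pmp22, whose gene dosage decides common inherited neuropathies, was highest in Clrn1-/-. It lies at chr11:63128982-63159547 on the plus strand of GRCm38. Its level was 2292, 2097 and 2428 CPM in the wild-type libraries and 3144, 2814 and 2906 CPM in Clrn1-/-. It was 2534, 2358 and 2434 CPM in Clrn2-/- and 2376, 2812 and 2658 CPM in Clrn1-/-Clrn2-/-. All Clrn1-/- libraries lay above all wild-type and all Clrn2-/- libraries, while the lowest Clrn1-/-Clrn2-/- library lay inside the wild-type range. Against wild-type the log2 fold change was 0.38 ± 0.072 (SE, adjusted p = 0.00113, edgeR) in Clrn1-/-, a 1.30-fold increase, 0.10 ± 0.072 (adjusted p = 0.383) in Clrn2-/- and 0.20 ± 0.072 (adjusted p = 0.0370) in Clrn1-/-Clrn2-/-. The last of these calls was lost when any of 6 libraries was left out: wild-type replicate 1 (adjusted p = 0.0786) or 2 (0.14, adjusted p = 0.178), Clrn1-/- replicate 3 (adjusted p = 0.0511), Clrn2-/- replicate 2 (adjusted p = 0.0507), or Clrn1-/-Clrn2-/- replicate 2 (0.14, adjusted p = 0.194) or 3 (adjusted p = 0.114).

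Prx, on chr7:27499324-27520214 (plus strand, with the opposite-strand gene Gm15541 overlapping), followed Pmp22 in Clrn1-/-. Wild-type libraries held 986, 922 and 1078 CPM and Clrn1-/- libraries 1300, 1183 and 1163 CPM. Clrn2-/- libraries held 1102, 960 and 1002 CPM, and Clrn1-/-Clrn2-/- libraries 984, 1127 and 1143 CPM. The 3 Clrn1-/- libraries were higher than the other 9, which overlapped each other. In the fit its log2 fold change was 0.29 ± 0.074 (adjusted p = 0.00910) in Clrn1-/-, or 1.22-fold, against 0.038 ± 0.074 (adjusted p = 0.796) in Clrn2-/- and 0.12 ± 0.074 (adjusted p = 0.214) in Clrn1-/-Clrn2-/-.

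Ncmap had the largest increase of the 8 in both genotypes without clarin-1. The gene lies at chr4:135369576-135398227 on the minus strand. Its level was 193, 228 and 231 CPM in wild-type and 301, 294 and 317 CPM in Clrn1-/-. It was 264, 229 and 249 CPM in Clrn2-/- and 263, 306 and 321 CPM in Clrn1-/-Clrn2-/-. Every Clrn1-/- and every Clrn1-/-Clrn2-/- library lay above every wild-type library, whereas Clrn2-/- overlapped wild-type. Its fitted log2 fold change was 0.49 ± 0.077 (adjusted p = 0.000243) in Clrn1-/- and 0.45 ± 0.077 (adjusted p = 0.000239) in Clrn1-/-Clrn2-/-, or 1.40-fold and 1.37-fold, and 0.19 ± 0.077 (adjusted p = 0.122) in Clrn2-/-. Both calls held whichever library was left out.

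Egr2, the transcription factor, did not pass the test in any mutant against wild-type. It lies at chr10:67535475-67542188 on the plus strand. Its level was 83.2, 69.3 and 92.1 CPM in wild-type, 111, 87.2 and 82.8 CPM in Clrn1-/-, 74.6, 78.6 and 70.3 CPM in Clrn2-/- and 76.0, 78.7 and 79.7 CPM in Clrn1-/-Clrn2-/-. The Clrn1-/- libraries lay above all Clrn2-/- and Clrn1-/-Clrn2-/- libraries, and every mutant overlapped wild-type. The log2 fold change was 0.20 ± 0.099 (adjusted p = 0.160) in Clrn1-/-, −0.13 ± 0.10 (adjusted p = 0.440) in Clrn2-/- and −0.061 ± 0.10 (adjusted p = 0.683) in Clrn1-/-Clrn2-/-. In Clrn1-/- it was called without wild-type replicate 3, at 0.29 (adjusted p = 0.0407). Egr2 is also an immediate-early gene, induced in many cells by stimulation and by tissue handling, and of 11 such genes other than Egr2, 10 were called higher and 1 lower in Clrn1-/-Clrn2-/-, 6 higher and 1 lower in Clrn1-/-, and 6 higher in Clrn2-/-. Of all genes, 19.1%, 13.6% and 7.14% were called higher in these mutants, in the same order, and 17.9%, 13.3% and 7.07% lower. The part of the immediate-early genes in the level of Egr2 was not tested.

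**Figure D2:**
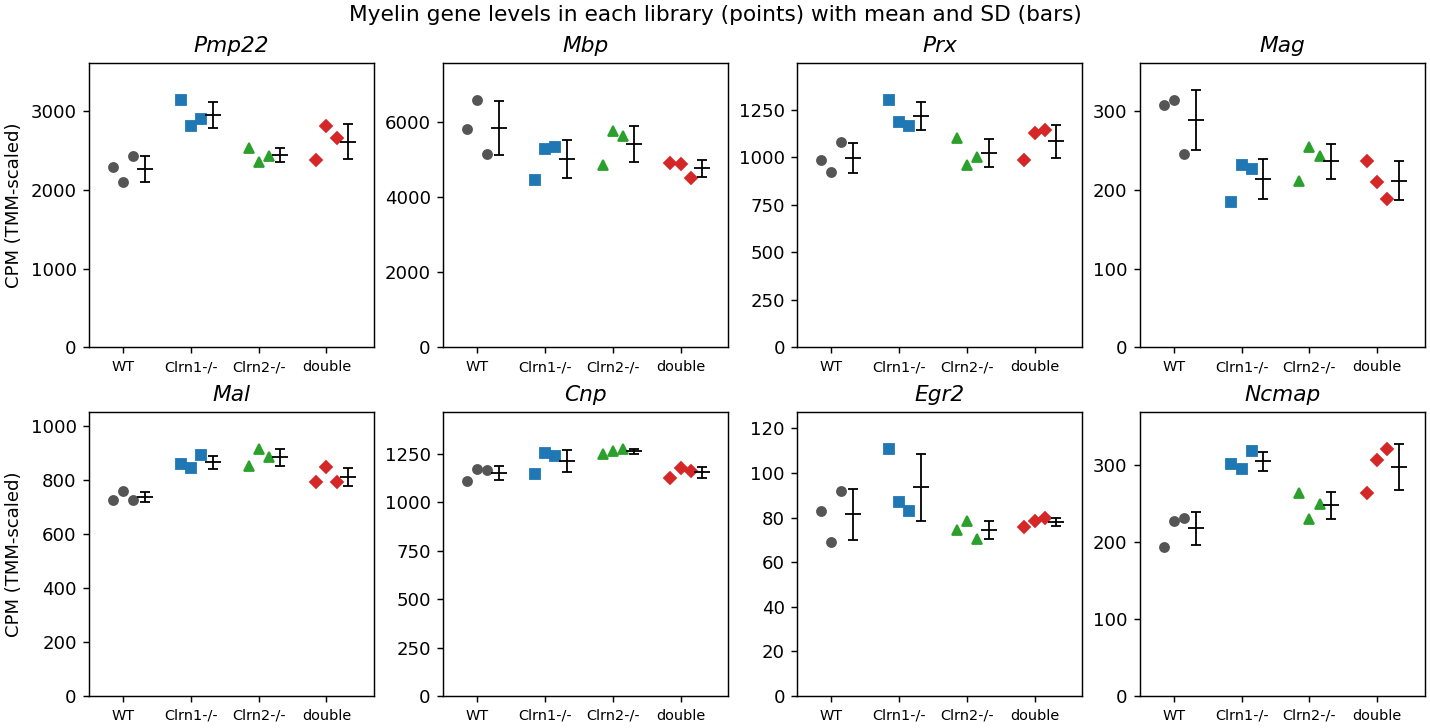
Level of each of the 8 genes in CPM (y axis, linear, 1 panel per gene) in each library, with points for libraries and bars for the mean and SD of 3 libraries per genotype (WT is wild-type, double is Clrn1-/-Clrn2-/-). The mean of Pmp22, Prx and Ncmap is highest in Clrn1-/-, the mean of Mag is highest in wild-type, and Egr2 in every mutant overlaps wild-type.

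Mag was the member with the largest decrease in Clrn1-/- and in Clrn1-/-Clrn2-/-. It lies at chr7:30899176-30914873 on the minus strand. Its level was 309, 314 and 245 CPM in wild-type and 185, 231 and 226 CPM in Clrn1-/-. It was 212, 255 and 243 CPM in Clrn2-/- and 237, 210 and 188 CPM in Clrn1-/-Clrn2-/-. Every Clrn1-/- and Clrn1-/-Clrn2-/- library lay below every wild-type library, and 1 Clrn2-/- library lay above the lowest wild-type library. Relative to wild-type, the log2 fold change was −0.43 ± 0.11 (adjusted p = 0.00654) in Clrn1-/- and −0.45 ± 0.11 (adjusted p = 0.00313) in Clrn1-/-Clrn2-/-, levels 1.35-fold and 1.37-fold lower, and −0.29 ± 0.11 (adjusted p = 0.0799) in Clrn2-/-. Without wild-type replicate 3, the Clrn2-/- difference was called at −0.40 (adjusted p = 0.0115).

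Mbp, the most counted of the 8, was called lower in Clrn1-/-Clrn2-/-. It lies at chr18:82475146-82585637 on the plus strand. Its level was 5812, 6570 and 5130 CPM in wild-type, 4435, 5283 and 5333 CPM in Clrn1-/-, 4846, 5752 and 5610 CPM in Clrn2-/- and 4899, 4885 and 4488 CPM in Clrn1-/-Clrn2-/-. All Clrn1-/-Clrn2-/- libraries lay below all wild-type libraries, and both single mutants overlapped wild-type. The log2 fold change was −0.30 ± 0.096 (adjusted p = 0.0240) in Clrn1-/-Clrn2-/-, or 1.23-fold lower, with −0.22 ± 0.096 (adjusted p = 0.107) in Clrn1-/- and −0.11 ± 0.096 (adjusted p = 0.497) in Clrn2-/-. These calls rested on single libraries: the Clrn1-/-Clrn2-/- call was lost without wild-type replicate 1 (adjusted p = 0.0500, just past the threshold), wild-type replicate 2 (−0.21, adjusted p = 0.116) or Clrn1-/-Clrn2-/- replicate 3 (−0.26, adjusted p = 0.0896), and Mbp was called lower in Clrn1-/- without wild-type replicate 3 (−0.30, adjusted p = 0.0229). In edgeR the Clrn1-/-Clrn2-/- call was also lost with scaling by library size alone (−0.25, adjusted p = 0.0525). The same held with the oligodendrocyte marker term described further on (−0.038, adjusted p = 0.743).

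Mal was higher in every mutant library than in every wild-type library. It lies at chr2:127633226-127656695 on the minus strand. Its level was 725, 760 and 728 CPM in wild-type and 859, 846 and 891 CPM in Clrn1-/-. It was 852, 916 and 886 CPM in Clrn2-/- and 794, 850 and 792 CPM in Clrn1-/-Clrn2-/-. The log2 fold change was 0.23 ± 0.048 (adjusted p = 0.00213) in Clrn1-/-, 0.26 ± 0.048 (adjusted p = 0.00156) in Clrn2-/- and 0.14 ± 0.048 (adjusted p = 0.0321) in Clrn1-/-Clrn2-/-, or 1.17-fold, 1.20-fold and 1.10-fold. The last call was lost when any of 7 libraries was left out: wild-type replicate 1 or 3, Clrn1-/- replicate 1 or 2, or any Clrn1-/-Clrn2-/- replicate, with adjusted p from 0.0515 to 0.194 and a value of 0.099 without Clrn1-/-Clrn2-/- replicate 2. It was also lost with no filter on low counts (0.12, adjusted p = 0.0683).

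Cnp did not pass the edgeR test in any mutant against wild-type. It lies at chr11:100574904-100591729 on the plus strand, opposite Dnajc7. Its level was 1107, 1172 and 1167 CPM in wild-type, 1148, 1252 and 1241 CPM in Clrn1-/-, 1251, 1265 and 1276 CPM in Clrn2-/- and 1123, 1179 and 1161 CPM in Clrn1-/-Clrn2-/-. All 3 Clrn2-/- libraries lay above wild-type, and the other genotypes overlapped it. The log2 fold change was 0.079 ± 0.049 (adjusted p = 0.256) in Clrn1-/-, 0.14 ± 0.049 (adjusted p = 0.0739) in Clrn2-/- and 0.0069 ± 0.049 (adjusted p = 0.931) in Clrn1-/-Clrn2-/-. The Clrn2-/- difference was called by DESeq2 (adjusted p = 0.00929) and by limma-voom (adjusted p = 0.0417), and by edgeR without Clrn2-/- replicate 1 (0.15, adjusted p = 0.0477). With scaling by library size alone, edgeR called Cnp higher in Clrn1-/- (0.12, adjusted p = 0.0473) and in Clrn2-/- (0.17, adjusted p = 0.0148).

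By separation of libraries, 4 of the 8 genes had all Clrn1-/- libraries above wild-type and 1 had all below, beside 20.5% and 19.8% of all genes. The counts were 2 above and 0 below for Clrn2-/-, beside 14.6% and 14.4%, and 2 above and 2 below for Clrn1-/-Clrn2-/-, beside 25.0% and 23.2%.

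Comparing the mutants directly, Pmp22, Prx, Egr2 and Ncmap were higher in Clrn1-/- than in Clrn2-/-. In Clrn1-/- against Clrn2-/- 4 of the 8 were called higher, beside 9.51% of all genes, and none lower, beside 8.99%, with 0 lower also by DESeq2, by limma-voom and at an unadjusted p under 0.05. The 4 were Pmp22 at 0.27 ± 0.072 (adjusted p = 0.0149), Prx at 0.25 ± 0.074 (adjusted p = 0.0279), Egr2 at 0.33 ± 0.10 (adjusted p = 0.0320) and Ncmap at 0.30 ± 0.077 (adjusted p = 0.0131), each with all 3 Clrn1-/- libraries above all 3 Clrn2-/- libraries, a pattern of 17.3% of all genes. Each call was lost without at least 1 library. Pmp22 was not called without Clrn1-/- replicate 1 (0.23, adjusted p = 0.0737) or Clrn2-/- replicate 2 (adjusted p = 0.0580), nor Ncmap without Clrn2-/- replicate 2 (0.25, adjusted p = 0.0656). Prx was not called without Clrn1-/- replicate 1 (0.20, adjusted p = 0.123) or 2, or Clrn2-/- replicate 2 or 3, nor Egr2 without Clrn1-/- replicate 1 (0.19, adjusted p = 0.178) or Clrn2-/- replicate 1 or 3. With the level of the oligodendrocyte markers as a further term, a fit described further on, 3 of the 4 were called and Egr2 was not (0.19, adjusted p = 0.0753). The genes that oligodendrocytes also use were not called here, at −0.11 ± 0.096 for Mbp, −0.14 ± 0.11 for Mag, −0.032 ± 0.048 for Mal and −0.059 ± 0.049 for Cnp.

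Losing clarin-2 in addition to clarin-1 left all 8 genes with negative log2 fold changes, none of them called, where 15.7% of all genes were called higher and 14.6% lower. The largest were −0.26 ± 0.10 for Egr2 (adjusted p = 0.0624), −0.18 ± 0.072 for Pmp22 (adjusted p = 0.0795) and −0.16 ± 0.074 for Prx (adjusted p = 0.109), each with every Clrn1-/-Clrn2-/- library below every Clrn1-/- library, as in 22.3% of all genes. At an unadjusted p under 0.05 these 3 counted as lower, DESeq2 called 2 lower and limma-voom 0, and no member was higher by any of these. With edgeR, Egr2 was called lower without wild-type replicate 2 or 3 or Clrn1-/- replicate 3 (−0.35, adjusted p = 0.0215), and Pmp22 without wild-type replicate 2 or 3 or Clrn1-/-Clrn2-/- replicate 2 (−0.24, adjusted p = 0.0384).

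Losing clarin-1 in addition to clarin-2 went with higher Ncmap, at 0.26 ± 0.077 (adjusted p = 0.0186), the 1 member called of 8, beside 14.4% of all genes called higher. That call was lost without Clrn2-/- replicate 2 (0.20, adjusted p = 0.102) or without Clrn1-/-Clrn2-/- replicate 2 or 3 (0.19, adjusted p = 0.117), and the libraries overlapped. None was called lower, beside 13.2%, although Cnp at −0.13 ± 0.049 (adjusted p = 0.0584) and Mal at −0.12 ± 0.048 (adjusted p = 0.0657) had all Clrn1-/-Clrn2-/- libraries below Clrn2-/-, as in 20.8% of all genes, had an unadjusted p under 0.05 and were called lower by DESeq2 and limma-voom. By edgeR, Cnp was called lower without any of 7 libraries (the 3 wild-type, the 3 Clrn1-/- and Clrn2-/- replicate 1), at −0.14 with adjusted p from 0.0312 to 0.0467, and Mal without wild-type replicate 3, Clrn1-/- replicate 3, Clrn2-/- replicate 1 or Clrn1-/-Clrn2-/- replicate 2 (−0.17, adjusted p = 0.0391).

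The effect of losing both clarins differed from the sum of the single losses for Mal and Cnp. The interaction term, the log2 change in Clrn1-/-Clrn2-/- minus the sum of the changes in the single mutants, was −0.35 ± 0.068 (adjusted p = 0.00201) for Mal and −0.21 ± 0.069 (adjusted p = 0.0472) for Cnp. Among all genes 8.06% had a negative and 9.32% a positive interaction by the same test. Mal had risen by 0.23 and by 0.26 in the single mutants and by 0.14 in Clrn1-/-Clrn2-/-, and Cnp stood at 0.079, 0.14 and 0.0069, so both were less raised without both clarins than the single losses add up to. The Mal call held whichever library was left out, while the Cnp call was lost in 7 of 12 such fits, without wild-type replicate 1 (−0.20, adjusted p = 0.0928), Clrn1-/- replicate 2 or 3, Clrn2-/- replicate 2 or any Clrn1-/-Clrn2-/- replicate. The other 6 interactions were not called, from −0.28 ± 0.10 for Pmp22 (adjusted p = 0.0729) to 0.27 ± 0.15 for Mag (adjusted p = 0.237), in edgeR. The Pmp22 term depended on the tool and the scaling: it was called negative by DESeq2 (−0.29, adjusted p = 0.0154), by limma-voom (adjusted p = 0.0469), with library size alone (−0.32, adjusted p = 0.0285) and with no filter on low counts (adjusted p = 0.00212), as well as without wild-type replicate 3 (−0.34, adjusted p = 0.0234) or Clrn1-/-Clrn2-/- replicate 2 (−0.35, adjusted p = 0.0410). DESeq2 and limma-voom thus called 3 negative interactions among the 8.

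The summed level of the 8 genes overlapped between each mutant and wild-type, while its members differed in both directions. The sum was 11579 ± 520 CPM in wild-type. It was 11879 ± 353 CPM in Clrn1-/-, 11574 ± 380 CPM in Clrn2-/- and 11010 ± 382 CPM with both clarins lost, differences from wild-type of 2.58%, −0.049% and −4.91%. Mbp is the largest part of the sum, and the mean of the 8 log2 levels, which weights the genes equally, gave another picture. That mean was 9.43 to 9.46 log2 CPM in the wild-type libraries and 9.57 to 9.58 in Clrn1-/-, with no overlap and a difference of 0.13, against 0.037 for the log2 ratio of the sums. In Clrn1-/-Clrn2-/- the sign turned, from −0.073 by the sums to 0.017 by the mean. The make-up shifted: Mbp held 50.3% of the sum in wild-type, 46.6% in Clrn2-/-, 43.2% in Clrn1-/-Clrn2-/- and 42.2% in Clrn1-/-, while Pmp22 held 19.7%, 21.1%, 23.7% and 24.9% in the same order. In bulk tissue, fewer cells of a type and less RNA per cell cannot be told apart, and this holds for every value given here.

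Within each genotype, libraries low in Mag were high in Prx. The library lowest in Mag was the highest in Prx in 4 of 4 genotypes, and the library highest in Mag was the lowest in Pmp22 in 4 of 4 and the lowest in Prx in 3 of 4. Mag and Mobp had the same highest and the same lowest library in 4 of 4 genotypes. On the log2 scale the Prx-to-Mag ratio was 1.79 ± 0.31 in wild-type, 2.11 ± 0.24 in Clrn2-/-, 2.36 ± 0.28 in Clrn1-/-Clrn2-/- and 2.51 ± 0.26 in Clrn1-/-, whereas the Mag-to-Mobp ratio was −1.38 ± 0.19, −1.61 ± 0.10, −1.44 ± 0.02 and −1.39 ± 0.17 in the same order. The difference between Clrn1-/- and wild-type was thus larger than the spread of libraries in the first ratio and smaller in the second.

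The spread between libraries of a genotype followed the oligodendrocyte markers. Taking each library's deviation from its genotype mean, over 12 libraries, the mean log2 level of the 14 markers had a Pearson correlation of 0.97 with Mag (Spearman 0.93), 0.93 with Mbp (0.86), −0.96 with Prx (−0.96), −0.87 with Pmp22 (−0.90) and −0.80 with Egr2 (−0.76). Permuting libraries within genotypes (exact, two-sided, 1296 arrangements, smallest possible p = 0.000772) gave p = 0.00231 for Mag, 0.000772 for Mbp, 0.000772 for Prx, 0.00694 for Pmp22 and 0.0123 for Egr2. For the Spearman values the exact permutation p was 0.00309 for Mag, 0.000772 for Mbp, 0.000772 for Prx, 0.00540 for Pmp22 and 0.0239 for Egr2. After Benjamini-Hochberg adjustment over the 32 relations of the 8 genes with 4 lists, the permutation p of the Pearson values was 0.0247 for Mag, 0.0123 for Mbp and Prx, 0.0556 for Pmp22 and 0.0790 for Egr2, and that of the Spearman values 0.0329, 0.0123, 0.0123, 0.0432 and 0.109 in the order Mag, Mbp, Prx, Pmp22, Egr2. Without the 2 libraries farthest from the median marker level, Pearson's correlation was 0.95 for Mag, 0.88 for Mbp, −0.96 for Prx, −0.81 for Pmp22 and −0.59 for Egr2.

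Mal, Cnp and Ncmap did not follow the markers, with Pearson correlations of 0.37 (exact permutation p = 0.296), 0.30 (p = 0.473) and −0.46 (p = 0.219). With the 20 neuron markers no member's Pearson correlation passed 0.40 in size, and all adjusted permutation p values were at least 0.290 for Pearson and 0.0642 for Spearman. The smallest Spearman p belonged to Ncmap, with a Spearman correlation of 0.66. With the means of the list of peripheral myelin proteins and the list of non-myelinating, immature and repair genes, both described further on, the smallest adjusted permutation p was 0.109. The largest Pearson correlations in size were 0.75 for Pmp22 with the first list, and −0.78 for Egr2 and −0.75 for Pmp22 with the second. The points share libraries and the scaling to library size, so that a rise in any group of transcripts lowers the rest.

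**Figure D3:**
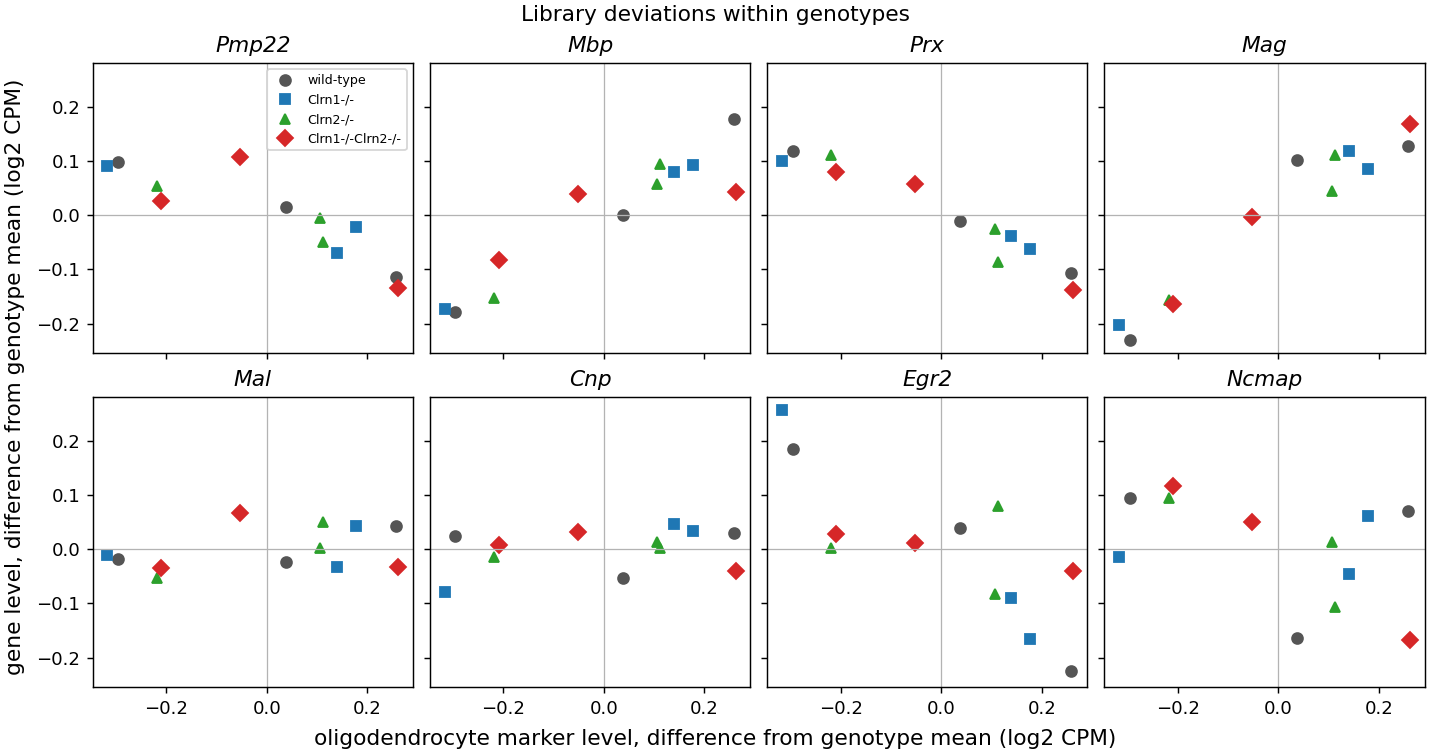
Deviation of each library from its genotype mean in log2 CPM for the 8 genes (y axis, 1 panel per gene) against the deviation of the mean log2 level of 14 oligodendrocyte markers (x axis, log2 CPM), with 1 point per library and colours for genotype. Points rise along a line for Mbp and Mag, fall for Prx, Pmp22 and Egr2, and scatter for Mal, Cnp and Ncmap.

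The same markers also differed between genotypes. Of the 14, 5 were called lower and none higher in Clrn1-/-, 2 lower in Clrn2-/- and 8 lower in Clrn1-/-Clrn2-/-, and their median log2 fold change was −0.42, −0.14 and −0.47. Of all genes, 13.3%, 7.07% and 17.9% were called lower in the same order. Mog was called lower in Clrn1-/-Clrn2-/- at −0.46 ± 0.16 (adjusted p = 0.0318), while Mobp was at −0.40 ± 0.17 (adjusted p = 0.0780). The median of the markers had the same sign as Mag and Mbp in every mutant, although Mbp was called only in Clrn1-/-Clrn2-/-. The summed marker level of every mutant overlapped wild-type. Whether the markers and these genes changed for a shared reason was not tested.

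With the marker level as a further term in the edgeR fit, a choice made after seeing the data, the members divided. In Clrn1-/- against wild-type Pmp22 was 0.24 ± 0.062 (adjusted p = 0.00984), Mal 0.26 ± 0.056 (adjusted p = 0.00322), Ncmap 0.40 ± 0.085 (adjusted p = 0.00293) and Mag −0.16 ± 0.052 (adjusted p = 0.0397), all still called, whereas Prx stood at 0.12 ± 0.051 (adjusted p = 0.108) and Mbp stood at −0.0020 ± 0.067. In Clrn1-/-Clrn2-/- Ncmap at 0.34 ± 0.091 (adjusted p = 0.00865) and Mal at 0.17 ± 0.059 (adjusted p = 0.0357) were still called. Pmp22 at 0.045 ± 0.066 (adjusted p = 0.664), Mbp at −0.038 ± 0.071 (adjusted p = 0.743) and Mag at −0.13 ± 0.055 (adjusted p = 0.0913) were not, and Egr2 was called lower at −0.30 ± 0.084 (adjusted p = 0.0124). In Clrn2-/- Mal was called higher at 0.27 ± 0.047 (adjusted p = 0.000837) and Mag lower at −0.18 ± 0.044 (adjusted p = 0.0114). Of all genes, this fit called 20.9% in Clrn1-/-, 14.7% in Clrn2-/- and 31.1% in the double mutant, where the fit on genotype alone called 26.9%, 14.2% and 37.0%.

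The interaction of Mal was −0.36 ± 0.065 (adjusted p = 0.000968) with the marker term and that of Cnp −0.21 ± 0.066 (adjusted p = 0.0313). With it Pmp22 was also called, at −0.25 ± 0.072 (adjusted p = 0.0222), and Mag at 0.21 ± 0.060 (adjusted p = 0.0239).

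**Figure D4:**
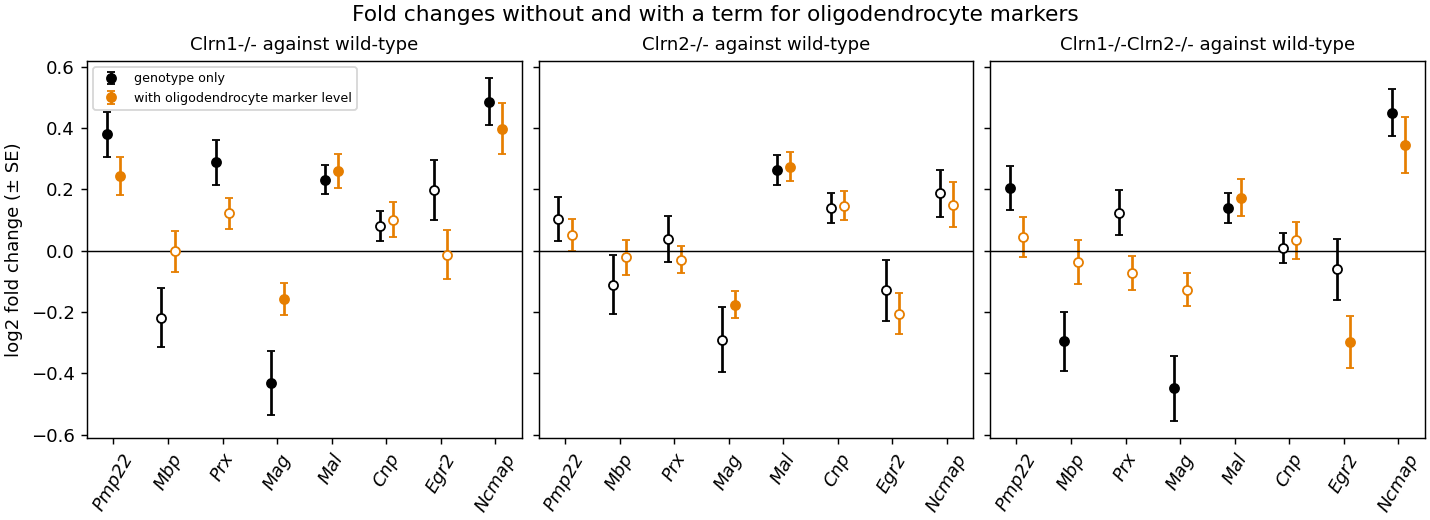
Log2 fold change of the 8 genes (x axis) against wild-type (y axis, log2, bars are standard errors, 1 panel per mutant) from the fit on genotype alone (black) and from the fit with the oligodendrocyte marker level as a term (orange), with filled points called and open points not. Mal is called by both fits in all 3 mutants and Ncmap in Clrn1-/- and Clrn1-/-Clrn2-/-, while in these 2 mutants Pmp22, Mbp and Mag move towards 0.

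Markers of several other cell types differed too. Of all genes, 19.1% were called higher and 17.9% lower in Clrn1-/-Clrn2-/-, 13.6% and 13.3% in Clrn1-/-, and 7.14% and 7.07% in Clrn2-/-. Of 20 neuron markers 14 were called lower and 2 higher in Clrn1-/-Clrn2-/-, with 8 lower and 3 higher in Clrn1-/- and 6 lower and 1 higher in Clrn2-/-, and their summed level was 15210 ± 763 CPM in wild-type and 10536 ± 130 in Clrn1-/-Clrn2-/-, with 13945 ± 260 in Clrn1-/- and 13678 ± 954 in Clrn2-/-. Of 10 macrophage markers 9 were higher in Clrn1-/-Clrn2-/- and 8 in Clrn1-/-, with summed levels of 159 ± 22.3 CPM in wild-type and 235 ± 19.4 in Clrn1-/-Clrn2-/-. In Clrn1-/-Clrn2-/- 8 of 10 supporting cell markers were higher and 1 lower, 4 of 9 hair cell markers higher and 2 lower, 5 of 10 fibroblast markers higher and 2 lower, 2 of 8 bone markers higher, and 2 of 10 markers of stria and melanocytes higher and 2 lower. The part of these cell types in the changes of the 8 genes was not tested.

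Beyond the 8 genes, the wider gene set of Schwann cells was examined through 5 lists of 76 genes that hold no member, of which 75 could be tested. In Clrn1-/- 35 of the 75 were called higher and 9 lower, in Clrn2-/- 8 higher and 8 lower, and in Clrn1-/-Clrn2-/- 34 higher and 14 lower. Their median log2 fold change was 0.13, 0.034 and 0.15. The count of higher genes in Clrn1-/- was 22 with the oligodendrocyte marker term. The counts in Clrn2-/- were the least stable, with 16 higher and 4 lower when scaled by library size alone, 3 lower when Clrn2-/- and wild-type were fitted alone, and 3 to 5 lower without wild-type replicate 1, any Clrn2-/- replicate or any Clrn1-/-Clrn2-/- replicate. The shares for all genes are those given above for these 3 comparisons.

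Among 19 tested peripheral myelin proteins, 9 were higher and 3 lower in Clrn1-/-, 2 and 1 in Clrn2-/-, and 5 and 3 in Clrn1-/-Clrn2-/-. Gldn (gliomedin, which Schwann cells set at nodes of Ranvier) was 150, 142 and 169 CPM in wild-type and 245, 260 and 257 CPM in Clrn1-/-Clrn2-/-. It rose by 0.81 ± 0.063 in Clrn1-/- (adjusted p = 2.02e-07), 0.71 ± 0.063 in Clrn2-/- (adjusted p = 3.74e-06) and 0.72 ± 0.063 in Clrn1-/-Clrn2-/- (adjusted p = 2.72e-07) on the log2 scale, past 1.5-fold with no overlap in each. Cd9, a tetraspanin, at 0.40 ± 0.060 (adjusted p = 7.42e-05) and Dag1, the dystroglycan that binds the basal lamina, at 0.38 ± 0.057 (adjusted p = 6.66e-05) were also higher in Clrn1-/-Clrn2-/-. Nfasc, a cell adhesion molecule of nodes that axons express too, was lower at −0.36 ± 0.051 (adjusted p = 3.55e-05), as were Cmtm5 at −0.31 ± 0.089 (adjusted p = 0.0119) and the lipid phosphatase Mtmr2 at −0.12 ± 0.041 (adjusted p = 0.0315).

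Enzymes of myelin lipids divided in Clrn1-/-Clrn2-/-, with 3 of 11 higher and 6 lower, against 1 higher and 2 lower in Clrn1-/- and 0 higher and 2 lower in Clrn2-/-. The higher ones were Elovl1, which elongates very long fatty acids, at 0.67 ± 0.047 (adjusted p = 2.85e-08), Cers2, a ceramide synthase, at 0.43 ± 0.045 (adjusted p = 1.83e-06), and Scd2, a desaturase, at 0.27 ± 0.049 (adjusted p = 0.000390). Among the lower ones were Ugt8a, which makes galactosylceramide, at −0.34 ± 0.062 (adjusted p = 0.000390), the phosphatidate phosphatase Lpin1 at −0.28 ± 0.051 (adjusted p = 0.000363) and Gpd1, a glycerol phosphate dehydrogenase, at −0.34 ± 0.12 (adjusted p = 0.0291). Gpd1 stood at 0.01 with the oligodendrocyte marker term.

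Transcription factors and coregulators of Schwann cells were called higher in 10 of 15 and lower in 0 in Clrn1-/-Clrn2-/-, and higher in 8 and lower in 2 in Clrn1-/-. In Clrn2-/- 0 were called higher and 1 lower. Sox10, which acts with Egr2 and is also an oligodendrocyte and supporting cell factor, was 245, 233 and 240 CPM in wild-type and 318, 336 and 317 CPM in Clrn1-/-Clrn2-/-. Its increase there was 0.44 ± 0.044 (adjusted p = 1.24e-06), and in Clrn1-/- 0.13 ± 0.044 (adjusted p = 0.0409). Srebf1, a factor of lipid synthesis genes in many cells, was 180, 163 and 186 CPM in wild-type and 339, 366 and 369 CPM in Clrn1-/-Clrn2-/-, an increase of 1.02 ± 0.066 (adjusted p = 1.26e-08). Pou3f1, a factor of promyelinating Schwann cells, at 0.49 ± 0.090 (adjusted p = 0.000399) and Yap1, a Hippo pathway coactivator, at 0.45 ± 0.050 (adjusted p = 3.43e-06) were also higher.

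Receptors and ligands of Schwann cell signalling were higher in 10 of 15 and lower in 2 in Clrn1-/-Clrn2-/-, and higher in 9 and lower in 1 in Clrn1-/-. In Clrn2-/- 1 was higher and 2 were lower. Which cells these transcripts came from was not measured. The neuregulin receptors Erbb3, at 0.53 ± 0.060 (adjusted p = 4.53e-06), and Erbb2, at 0.46 ± 0.058 (adjusted p = 1.23e-05), were higher, as was Notch1 at 0.75 ± 0.072 (adjusted p = 7.76e-07). Their ligand Nrg1, which axons present to Schwann cells, was 92.3, 92.0 and 86.3 CPM in wild-type and 50.1, 53.1 and 56.2 CPM in Clrn1-/-Clrn2-/-. It was lower in all mutants, at −0.27 ± 0.047 (adjusted p = 0.000610) in Clrn1-/-, −0.30 ± 0.047 (adjusted p = 0.000530) in Clrn2-/- and −0.76 ± 0.048 (adjusted p = 9.09e-09) in Clrn1-/-Clrn2-/-. The axonal Adam22 was lower in Clrn1-/-Clrn2-/- at −0.17 ± 0.044 (adjusted p = 0.00741) and higher in Clrn1-/- at 0.23 ± 0.044 (adjusted p = 0.00120).

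Genes of non-myelinating, immature and repair Schwann cells were higher in 9 of 16 and lower in 1 in Clrn1-/-, higher in 5 and lower in 2 in Clrn2-/-, and higher in 7 and lower in 3 in Clrn1-/-Clrn2-/-. S100b, a calcium-binding protein of Schwann cells that many cochlear supporting cells also make, was 1129, 1100 and 1323 CPM in wild-type and 650, 642 and 678 CPM in Clrn1-/-Clrn2-/-, a change of −0.85 ± 0.081 (adjusted p = 6.85e-07). The adhesion molecules Cdh2 at −0.33 ± 0.045 (adjusted p = 2.74e-05) and L1cam at −0.28 ± 0.066 (adjusted p = 0.00291), which neurons also express, were lower as well. The neurotrophic factor Gdnf was higher at 0.98 ± 0.17 (adjusted p = 0.000203) from a low level of 2.08 ± 0.44 CPM in wild-type. The sodium channel gene Scn7a at 0.78 ± 0.081 (adjusted p = 1.79e-06) and the neural crest factor Foxd3 at 0.69 ± 0.083 (adjusted p = 7.70e-06) were higher. Ngfr, the low-affinity neurotrophin receptor of immature and repair Schwann cells, was not called, at 0.098 ± 0.062 (adjusted p = 0.245).

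**Figure D5:**
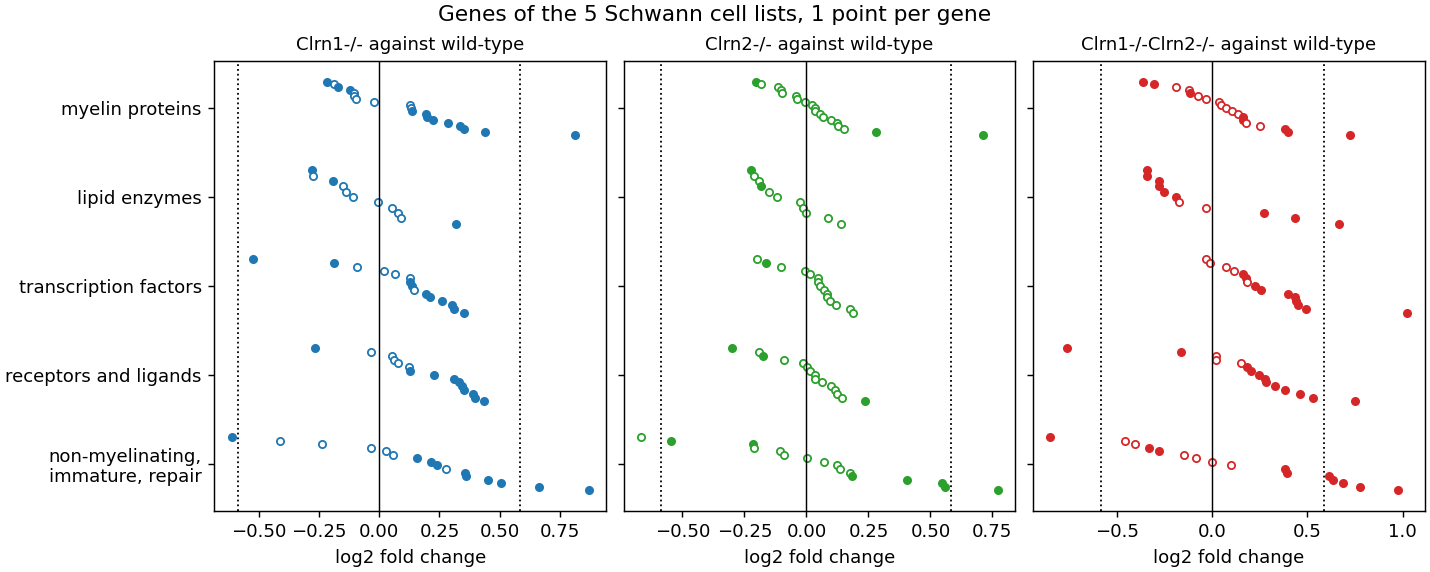
Log2 fold change against wild-type (x axis, log2) of each tested gene in the 5 Schwann cell lists (y axis), with 1 point per gene and 1 panel per mutant; filled points were called, open points were not, and dotted lines mark 1.5-fold. In Clrn1-/-Clrn2-/- 10 transcription factors and 10 receptors or ligands are filled to the right of 0, and lipid enzymes are filled on both sides, 3 to the right and 6 to the left.

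The genes whose log2 level over the 12 libraries was most like the mean of the 8 standardized log2 levels, by Pearson correlation, were Hhat (0.93), Gm4924 (0.92), Npas3 (0.92), Cpsf4 (0.91) and Rnf165 (0.91). That mean averages members that moved in opposite directions, such as Prx and Mag, with a correlation of −0.82 over the libraries. The 5 genes are given as a description of these 12 libraries.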

How the data were processed

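RNA-seq counts of 12 organ of Corti libraries (3 per genotype) were used. The authors aligned the reads with STAR (version not given in the sources used here) to GRCm38.p6, Gencode M24, and the deposited counts are STAR's reads per gene, of which the reverse-strand column was taken, since it held 95.2 to 95.5% of stranded reads. Rows that name no gene (13.5 to 15.8%) were left out. Replicates differed by more than sampling noise. Genes were filtered with edgeR's filterByExpr (minimum count 10), scaled by TMM, and tested with the quasi-likelihood test in 1 fit of all 12 libraries over 7 contrasts (R 4.3.3, edgeR 4.0.16). Alternatives were DESeq2 1.42.0, limma-voom (limma 3.58.1), other scalings, no filter, the compared genotypes alone, each library left out, a replicate block and, added later, an oligodendrocyte marker term. Same-numbered libraries deviated together in Clrn1-/- against wild-type (correlations 0.269, 0.126 and 0.105 over 12453 genes) and in no other comparison for all 3 numbers. Scripts were tested on simulated data. Coordinates are from Gencode M21 on GRCm38. The 8 genes, the lists and the tests were chosen with earlier results of these data known. Named genes were the 8 genes, fixed markers, and in each Schwann cell list up to 3 genes per direction with the largest called change in Clrn1-/-Clrn2-/-. Of the fixed markers, 2 are not reported here.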

Additional observations from a re-analysis of the deposited data

Results flagged for a closer look

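The interaction of the losses of Clrn1 and Clrn2 was called for 2 of the 8 genes: the change in Clrn1-/-Clrn2-/- differed from the sum of the changes in the single mutants by −0.35 ± 0.068 (SE, log2 scale, adjusted p = 0.00201, edgeR) for Mal and by −0.21 ± 0.069 (adjusted p = 0.0472, edgeR) for Cnp. Among all genes 8.06% had a negative and 9.32% a positive interaction by the same test. The Cnp call was lost in 7 of 12 fits that left out a library, while the Mal call held in all of them. Mal was higher in 3 of 3 libraries of each mutant than in all wild-type libraries. For Cnp, 3 of 3 Clrn2-/- libraries lay above wild-type, and the Clrn1-/- and Clrn1-/-Clrn2-/- libraries overlapped it.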

How the results depend on the processing

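In Clrn1-/- against wild-type 4 genes were called higher under DESeq2, limma-voom, DESeq2's size factors and counts without strand, and 5 with library size alone and without the filter. Without a filter on low counts, 2 were called lower in Clrn1-/- and 2 higher and 1 lower in Clrn2-/- and 2 higher in Clrn1-/-Clrn2-/- against wild-type (Mal was lost in the last), 3 lower in Clrn1-/-Clrn2-/- against Clrn1-/- and 4 lower against Clrn2-/-, 1 lower in Clrn1-/- against Clrn2-/-, and 1 positive and 5 negative interactions were called, while Cnp in Clrn1-/-Clrn2-/- stood at −0.00708. DESeq2 called 2 higher in Clrn2-/- and 2 lower in Clrn1-/-Clrn2-/- against either single mutant, and limma-voom called 2 higher in Clrn2-/- and 2 lower in Clrn1-/-Clrn2-/- against Clrn2-/-. With scaling by library size alone, 3 were higher in Clrn2-/-, 1 lower in Clrn1-/-Clrn2-/- against wild-type and 1 against Clrn2-/-, the Mbp interaction was −0.000343, and the 5 Schwann cell lists had 16 higher and 4 lower in Clrn2-/-. DESeq2's size factors in edgeR gave 1 lower in Clrn1-/-Clrn2-/- against Clrn2-/-. Fitting the compared genotypes alone gave 3 lower in Clrn1-/-Clrn2-/- against Clrn1-/-, and 3 of the list genes lower in Clrn2-/-.

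With the oligodendrocyte marker term, 1 gene was lower in Clrn2-/- and 1 in Clrn1-/-Clrn2-/- against wild-type, 3 were lower in Clrn1-/-Clrn2-/- against Clrn1-/-, 0 higher against Clrn2-/-, 1 interaction was positive, and 22 list genes were higher in Clrn1-/-. Values that changed sign under this term were, against wild-type, Prx at −0.029 in Clrn2-/- and −0.073 in Clrn1-/-Clrn2-/-, Egr2 at −0.013 in Clrn1-/-, and, in Clrn1-/-Clrn2-/-, Mog at 0.053, Mobp at 0.16 and Gpd1 at 0.011. In Clrn1-/-Clrn2-/- against Clrn2-/- they were Pmp22 at −0.0066, Prx at −0.043, Mag at 0.049 and Egr2 at −0.093, with Mag at 0.030 against Clrn1-/-, Mbp at 0.020 and Mag at 0.019 in Clrn1-/- against Clrn2-/-, and the Mbp interaction at −0.014. The mean of log2 CPM in place of the sum gave differences of 0.13 in Clrn1-/- and 0.017, with the sign turned, in Clrn1-/-Clrn2-/-.

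Leaving out 1 library at a time, the number called against wild-type ranged from 1 to 2 lower in Clrn1-/-, 1 to 2 higher and 0 to 1 lower in Clrn2-/-, and 1 to 3 higher and 1 to 2 lower in Clrn1-/-Clrn2-/-. It ranged from 0 to 2 lower in Clrn1-/-Clrn2-/- against Clrn1-/-, 0 to 1 higher and 0 to 2 lower against Clrn2-/-, 1 to 4 higher in Clrn1-/- against Clrn2-/-, and 1 to 3 negative interactions. Lower list genes in Clrn2-/- ranged from 3 to 9. Values that changed sign ranged, in Clrn1-/-Clrn2-/- against wild-type, from −0.026 to 0.021 for Cnp and −0.17 to 0.025 for Egr2, against Clrn1-/- from −0.12 to 0.048 for Mag and −0.11 to 0.033 for Ncmap, from −0.014 to 0.099 for Prx in Clrn2-/-, and from −0.073 to 0.11 for the Mbp interaction. The cause of these changes was not tested.

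With the replicate number as a block, 1 gene, Cnp, was called lower in Clrn1-/-Clrn2-/- against Clrn2-/-, at −0.13 (adjusted p = 0.0470, edgeR), and no other member's call changed, including all 8 in Clrn1-/- against wild-type when only these 2 genotypes were fitted. Each genotype had 3 libraries, so that adjusted p values close to 0.05 turned on single libraries. With 30008679 to 41049302 counts per library, counting error was small beside the spread between libraries. The wild-type breeding was confounded with genotype, and cell numbers were not measured.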
